A study of Mus musculus with 4 samples.

Results

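The genes examined were 36 aminoacyl-tRNA synthetases, the enzymes that load amino acids onto tRNA, chosen as a list of gene symbols and found under those symbols among the 25630 rows of an RNA-seq table. Of these, 20 encode cytosolic enzymes and 16, with names ending in 2, encode mitochondrial enzymes. All 36 passed a filter of at least 1 TPM on average (TPM, a level per transcript length, scaled to the same total in each library) and so were among the 10936 rows tested. RNA came from BEKO, a wild-type mouse thymic lymphoma cell line, grown at low density (2 libraries) or at high density (2 libraries). The labels name no treatment, strain, cell number, medium or culture time. Separate cultures are not mentioned either, and the p-values therefore reflect the spread among 4 libraries, part of which may be technical. Libraries are called low density 1 and 2 and high density 1 and 2 after the replicate numbers of the labels.

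Cells translate in 2 places. Cytosolic synthetases charge the tRNAs used by cytoplasmic ribosomes, and several of them sit together in the multisynthetase complex, held by the scaffold proteins AIMP1, AIMP2 and AIMP3. Mitochondrial synthetases are also made from nuclear genes, are imported, and charge the tRNAs for the respiratory subunits made inside the organelle. When a cell runs short of amino acids, uncharged tRNA activates the kinase GCN2, and the transcription factor ATF4 is then translated and switches on amino acid transporters, biosynthetic enzymes and many cytosolic synthetases.

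The T lineage genes Cd3e, Cd3d, Cd3g, Lck, Ptcra and Rag1 summed to between 4386 and 5492 TPM, as the cell type label has it. B lineage markers summed to at most 1.29 TPM, myeloid markers to between 20.6 and 25.5 TPM with Lyz2 at 0, and 2 of 3 markers each for epithelial and erythroid cells were at 0 in every library. Fibroblast markers, with Dcn at 0, summed to 45.0 TPM in low density 1, nearly all from the collagen genes Col1a1 and Col1a2, and to at most 0.673 TPM in the other 3 libraries. The part of these few transcripts in the values of low density 1 was not tested. The number of reads behind each library is unknown, since TPM keeps no depth. In bulk RNA, a change in the make-up of the cells and a change in RNA per cell cannot be told apart.

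No synthetase gene differed between the densities past the threshold. Limma called 0 of the 20 cytosolic and 0 of the 16 mitochondrial genes at an adjusted p under 0.05, where 6.68% of all rows tested were called. At an unadjusted p under 0.05 there were 4 cytosolic genes (Sars, Hars, Wars and Rars) and 1 mitochondrial gene (Fars2). Limma without its variance trend also called 0, and limma with robust moderation called Sars alone. The median log2 fold change, high minus low density on the log2(TPM + 1) scale, was 0.14 for the cytosolic and -0.32 for the mitochondrial genes, beside 0.12 for all rows tested. The cytosolic genes thus lay close to the middle of all rows and the mitochondrial genes below it. After median centring of the libraries these medians were -0.051, -0.51 and -0.063. Centring shifts the log2 fold change of every row by the same amount, so it could not change these positions. A difference that missed the threshold in a design of 2 against 2 is not shown to be absent.

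**Figure D1:**
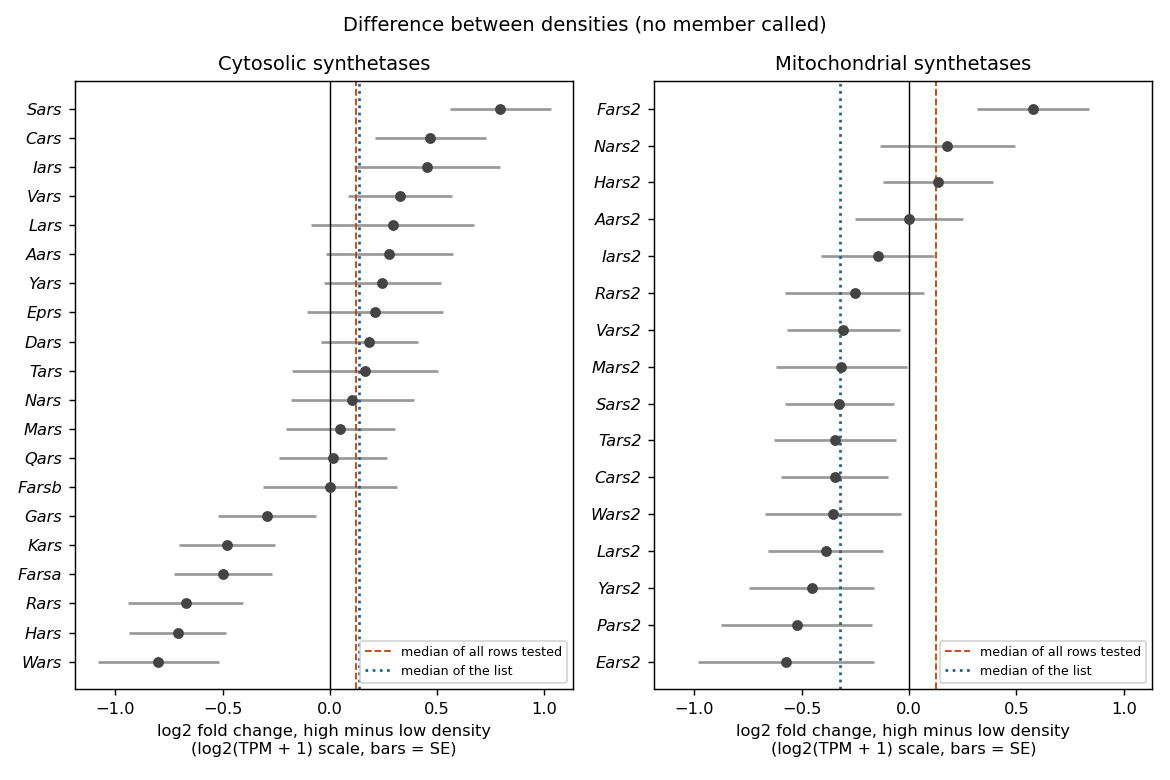
Log2 fold change of each gene, high minus low density on the log2(TPM + 1) scale (x axis), for the 20 cytosolic (left) and 16 mitochondrial genes (right), with the limma standard error as bars. The dotted line is the list's median, 0.14 and -0.32, and the dashed line the median of all rows tested, 0.12. Cytosolic genes reach from -0.80 for Wars to 0.79 for Sars, and 13 of the 16 mitochondrial genes lie below 0.

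Among cytosolic enzymes the levels ranged widely. Gars, the glycine enzyme, was highest at low density with 411 ± 47.5 TPM (SD, n = 2), followed by Nars, the asparagine enzyme, with 312 ± 50.6 TPM and Dars, the aspartate enzyme, with 296 ± 2.23 TPM. The last pair did not differ beyond its spread. Wars, the tryptophan enzyme, was lowest with 39.5 ± 4.57 TPM. The genes of Gars and Kars also make the mitochondrial enzymes for glycine and lysine, so their RNA serves both compartments. Without these 2 genes the cytosolic median was 0.18 and again 0 genes were called.

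Sars, the serine enzyme, was the cytosolic gene with the largest positive difference. Its level was 217 and 171 TPM at low density and 315 and 355 TPM at high density, so that the groups did not overlap. The ratio of mean TPM was 1.73 and the log2 fold change 0.79 ± 0.23 (SE), short of the threshold at an adjusted p of 0.0646 in limma. The log2 fold change of Sars was 0.88 or 0.71 without high density 1 or 2. Without low density 1 or 2 it was 0.97 or 0.62.

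Hars, the histidine enzyme, had replicates that lay close together. It stood at 167 and 167 TPM at low density and at 99.1 and 104 TPM at high density. The mean at low density was 1.64 times that at high density. On the log2 scale the difference was -0.71 with an SE of 0.23, and limma gave an adjusted p of 0.0851. The difference was -0.67 or -0.75 without high density 1 or 2, and -0.71 without either low density library. Hars2, the mitochondrial histidine enzyme, overlaps Hars on the opposite strand. It stood at 43.1 and 48.1 TPM at low and 44.0 and 56.9 TPM at high density, so that its groups overlapped while those of Hars did not.

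Wars had the largest negative difference of the cytosolic genes, and Rars and Farsa followed Hars. Wars stood at 42.8 and 36.3 TPM at low and 18.4 and 26.8 TPM at high density (log2 fold change -0.80 ± 0.28 SE, limma adjusted p = 0.116). After median centring Wars was called lower (limma adjusted p = 0.0499). Rars, the arginine enzyme of the multisynthetase complex, stood at 170 and 165 TPM at low density. At high density Rars was 82.1 and 134 TPM, lower in both libraries but far apart between them (-0.67 ± 0.27, limma adjusted p = 0.159). Without high density 1 low density was 1.25 times high density for Rars, and without high density 2 it was 2.04 times.

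The phenylalanine enzyme is built from 2 different subunits, and their genes did not show the same pattern. Farsa, the alpha subunit, was 140 and 135 TPM at low and 95.3 and 98.8 TPM at high density (log2 fold change -0.50 ± 0.23 SE, limma adjusted p = 0.218). Farsb, the beta subunit, was 109 and 86.1 TPM at low density and 69.2 and 135 TPM at high density, so that both high density values lay outside the low density pair, 1 below it and 1 above it. Kars resembled Farsa, with 241 and 234 TPM at low and 179 and 162 TPM at high density (log2 difference -0.48 ± 0.22 SE, limma adjusted p = 0.223).

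In 4 of the 20 cytosolic genes (Sars, Cars, Dars and Vars) both high density values lay above both low density values, and in 6 (Hars, Wars, Rars, Farsa, Kars and Gars) both lay below. Over all rows tested 34.7% were separated upwards and 20.0% downwards. In the other 10 the groups overlapped. For Vars, the valine enzyme, the separation was marginal, with 297 and 266 TPM at low and 297 and 419 TPM at high density.

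**Figure D2:**
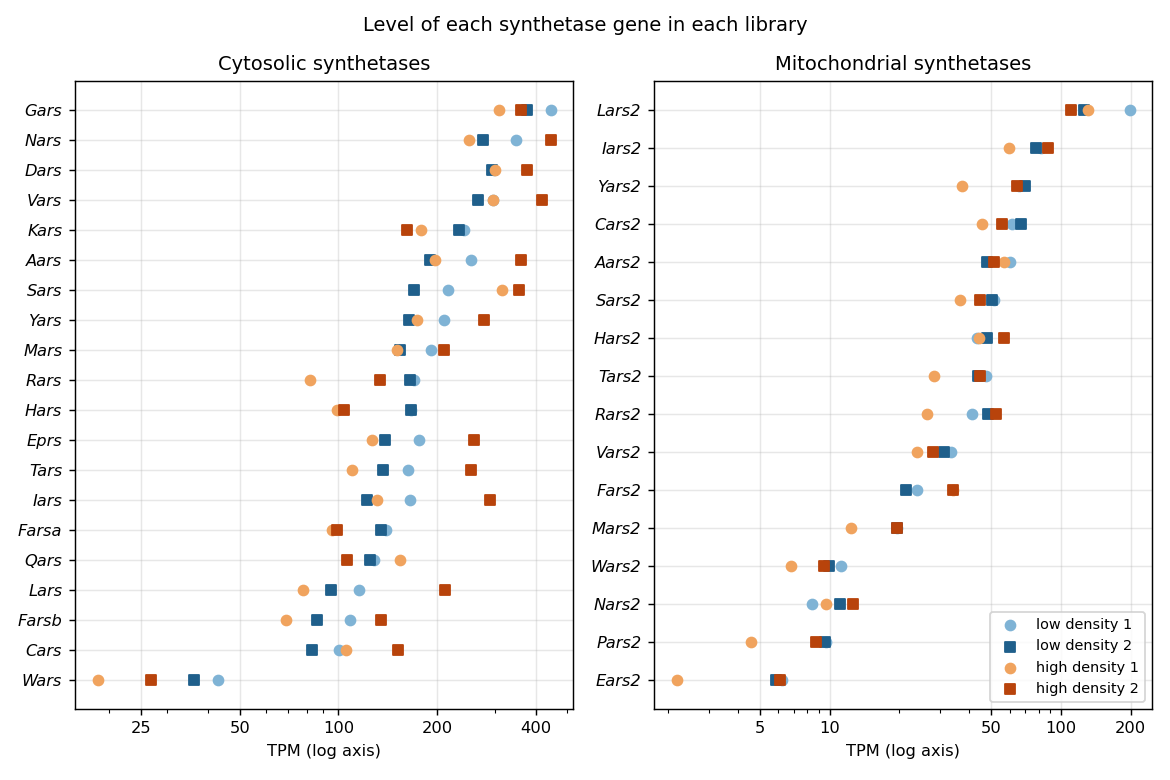
TPM on a log axis of each synthetase gene in the 4 libraries, cytosolic genes on the left and mitochondrial genes on the right, ordered by mean level at low density. Blue points are low density and orange points high density, with circles for library 1 and squares for library 2. The orange points of Lars, Tars, Iars and Eprs lie far apart, the square to the right of the blue ones. Those of Hars, Farsa and Kars lie together to the left of the blue ones.

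The largest differences within the cytosolic set were between the 2 high density libraries. Lars, the leucine enzyme, was 116 and 94.9 TPM at low density but 77.9 TPM in high density 1 and 211 TPM in high density 2. Tars, the threonine enzyme, was 163 and 137 TPM at low density, and 110 and 255 TPM at high density. Iars, the isoleucine enzyme, was 165 and 122 TPM at low density, and 131 and 289 TPM at high density. For these genes high density 2 was the highest library of the 4, while high density 1 lay below the low density pair or inside it. Yars, the tyrosine enzyme, had 210 and 164 TPM at low and 174 and 279 TPM at high density, and Aars, the alanine enzyme, 254 and 190 TPM at low and 197 and 360 TPM at high density. Eprs, whose protein charges both glutamate and proline tRNA, had 177 and 139 TPM at low and 127 and 259 TPM at high density. High density 1 was its lowest library, as for Lars and Tars but not for Yars and Aars.

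The direction of these genes therefore depended on which high density library was kept. Leaving out high density 1, the ratio of high to low density was 2.01 for Lars and 2.02 for Iars, and leaving out high density 2 it was 0.740 and 0.911. Without high density 1, limma called 8 of the 20 cytosolic genes higher (Aars, Cars, Eprs, Iars, Lars, Sars, Tars and Vars) and 2 lower (Hars and Kars), where 23.1% of all rows were called higher and 6.81% lower. Without high density 2, it called Sars higher and 3 genes lower (Hars, Rars and Wars), where 11.2% of all rows were called higher and 10.9% lower.

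The cytosolic genes were split by a list of 13 synthetases known as targets of ATF4 (Aars, Cars, Eprs, Gars, Iars, Lars, Mars, Nars, Sars, Tars, Vars, Wars and Yars), leaving 7 others (Dars, Farsa, Farsb, Hars, Kars, Qars and Rars). In 13 of the 13 the level was higher in high density 2 than in high density 1, by 1.13-fold for Sars to 2.71-fold for Lars with a median of 1.60. This order held for 70.9% of all rows tested, whose median ratio was 1.23. It also held for 5 of the 7 other cytosolic genes and for 14 of the 16 mitochondrial genes (median ratio 1.35). Among mitochondrial translation factors it held for 18 of 19 (median ratio 1.37), so it was not particular to the ATF4 list. In the same 13 of 13 the level was higher in low density 1 than in low density 2, by 1.12-fold for Vars to 1.36-fold for Iars, an order found in 69.7% of all rows. Both orders together held for the 13 genes, for 4 of the 7 other cytosolic genes, for 9 of the 16 mitochondrial genes and for 49.6% of all rows.

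In the 7 other cytosolic genes the median ratio of high density 2 to 1 was 1.05, though Farsb reached 1.95. Qars, the glutamine enzyme, went the other way, with 128 and 125 TPM at low density and 154 and 106 TPM at high density. Summed over the 7 genes, the level was 1252 and 1206 TPM at low density and 981 and 1115 TPM at high density, lower in both high density libraries. Summed over the 13 genes of the ATF4 list it was 2726 and 2210 TPM at low density and 2265 and 3620 TPM at high density, and the groups overlapped. The median log2 fold change was 0.24 for the 13 genes and -0.48 for the 7, with 0 called in either set.

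**Figure D3:**
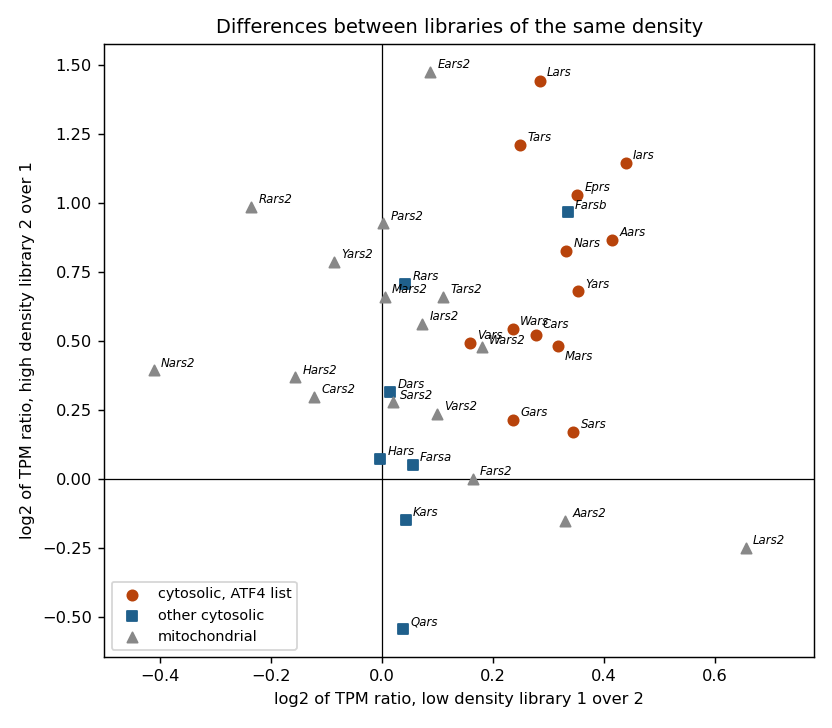
Differences between libraries of the same density for each synthetase gene, as the log2 of the TPM ratio of low density library 1 over 2 (x axis) and of high density library 2 over 1 (y axis). The 13 genes of the ATF4 list (circles) lie to the right of and above 0, the 7 other cytosolic genes (squares) mostly near the vertical line, and the 16 mitochondrial genes (triangles) on both sides of it.

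ATF4 acts together with C/EBP partners on a short element, searched here as TGATGNAA on both strands (TTNCATCA on the reverse) in promoters from RefSeq (GRCm38.p6), each of 250 bases before and 50 after a gene's start. Entries were found for 27 of the 36 members, Mars under Mars1, and not for Cars, Hars, Lars, Nars, Rars, Vars, Wars, Hars2 and Pars2. The element was present in 5 of the 8 genes of the ATF4 list that had an entry (Aars, Gars, Iars, Tars and Yars). It was present in 0 of the 5 other cytosolic genes, in 0 of the 14 mitochondrial ones and in 3.97% of all 32851 entries. A gene counted if any of its entries matched, whereas this share is per entry, with 27025 genes among the entries. Matches in 4 of these genes, without Aars, are shown. They were chosen because every gene of the ATF4 list was higher in high density 2 than 1 and in low density 1 than 2. The order across densities differed between these genes, and a link of the element to these orders was not tested. Asns (asparagine synthetase) and Trib3 (a pseudokinase), known ATF4 targets with a match, are given for comparison. Of the 28 amino acid response genes taken up below, 26 had an entry. The element was present in 8 of these 26, Asns and Trib3 among them, and of the 6 genes called below only in Trib3. Each line is 30 bases, 5′ to 3′ along the gene, with the match in capitals.
Gars, chr6:55037960-55037989 (+): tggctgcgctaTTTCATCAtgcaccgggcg
Iars, chr13:49682126-49682155 (+): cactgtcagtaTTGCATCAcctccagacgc
Tars, chr15:11399655-11399684 (-): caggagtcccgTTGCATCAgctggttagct
Yars, chr4:129189895-129189924 (+): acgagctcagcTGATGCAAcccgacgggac
Asns, chr6:7693214-7693243 (-): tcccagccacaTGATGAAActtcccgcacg
Trib3, chr2:152344028-152344057 (-): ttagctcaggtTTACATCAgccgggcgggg

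Iars, Tars and Yars share the form TTGCATCA or its reverse complement TGATGCAA. A match is a run of letters and not a measured site. The E-box CACGTG is the core element of MYC and related factors. It was found in 3 of the 8 genes of the ATF4 list that had an entry (Aars, Iars and Tars) and in 1 of the 5 other cytosolic ones (Farsb). It was also found in 1 of the 14 mitochondrial genes (Ears2) and in 7.15% of all entries.

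The other genes of the amino acid response were higher at high density in part. Of 28 listed, 23 were tested and 6 rose and 0 fell. The list's median log2 fold change was 0.38, beside a median of 0.12 for all rows, with 6.68% of all rows called in either direction. Ddit4, an inhibitor of mTORC1 that low oxygen also induces, rose from 471 and 375 to 1923 and 1450 TPM (adjusted p = 0.00108 in limma). Trib3 rose from 7.98 and 3.31 to 23.7 and 40.9 TPM (0.00515 in limma, adjusted), and Ppp1r15a, the phosphatase subunit that reverses the block on translation, from 18.6 and 18.8 to 51.8 and 72.8 TPM (0.00467). Ddit3, which encodes the stress factor CHOP, rose 2.98-fold (limma adjusted p = 0.0106), and Slc6a9, a glycine transporter, rose 2.79-fold (0.0115). The sixth was Cebpg, a partner of ATF4, up 2.39-fold (limma adjusted p = 0.0407), named after its value was seen.

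These calls depended on scaling and on the filter. The count was 3 after median centring, where 314 of the 10936 rows tested were called. It was 0 without the filter on low values, where 0 rows of the whole table were called. After median centring Ddit4 (limma adjusted p = 0.0522), Ddit3 (0.0563) and Cebpg (0.0777) lost their calls, and Trib3, Ppp1r15a and Slc6a9 kept theirs. Quantile normalisation ended the calls of Ddit3 (limma adjusted p = 0.0515) and Cebpg (0.0851). Cebpg was also not called without the variance trend (0.0836) or without ribosomal protein rows (0.0639). In each of the 6 genes both high density values exceeded both low density values, so leaving out 1 library could not turn the sign. With 1 library left out, the smallest log2 fold change was 1.78 for Ddit4 (without high density 1). It was 1.84 for Trib3 and 1.18 for Ddit3, both without low density 2. It was 1.42 for Ppp1r15a, 1.19 for Slc6a9 and 0.74 for Cebpg, each without high density 2. Calls are not given for these fits, whose error rests on the pair of the other density.

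RNA of Atf4 itself was 420 and 349 TPM at low and 424 and 462 TPM at high density (log2 fold change 0.21 ± 0.22 SE, limma adjusted p = 0.623). Asns was 108 and 65.2 TPM at low and 129 and 238 TPM at high density. The difference was 1.05 ± 0.33 (SE) on the log2 scale and not called (adjusted p = 0.0795 in limma). It was 1.49 or 0.61 without high density 1 or 2, and 1.41 or 0.69 without low density 1 or 2. High density 2 again exceeded high density 1, and low density 1 exceeded low density 2. In the 23 tested genes of this list the first order held in 20 and both orders in 19. Atf3 and Chac1, stress-induced targets, were at 13.4 and 3.51 TPM in low density 1 and at most 0.0396 TPM in the other 3 libraries.

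Upstream of ATF4, 0 of 11 genes for the sensing of uncharged tRNA were called, where 6.68% of all rows were called. Their median was -0.35, beside 0.12 for all rows. Eif2ak4, which encodes GCN2, was 12.8 and 9.41 TPM at low and 21.2 and 19.4 TPM at high density (log2 fold change 0.83 ± 0.30 SE, limma adjusted p = 0.116). Leaving out high density 1 or 2 gave a difference of 0.77 or 0.89 for Eif2ak4. Leaving out low density 1 or 2 gave 1.03 or 0.63.

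The 8 enzymes of the multisynthetase complex (Dars, Eprs, Iars, Kars, Lars, Mars, Qars and Rars) had a median log2 fold change of 0.12, and the 12 cytosolic genes outside it one of 0.14. Within the complex, values ran from -0.67 for Rars to 0.45 for Iars. The scaffold genes Aimp1 and Aimp2 were 224 ± 7.44 and 92.6 ± 4.84 TPM at low density and 270 ± 49.8 and 101 ± 10.7 TPM at high density (SD, n = 2). Eef1e1, which encodes AIMP3, was 163 and 213 TPM at low and 96.0 and 149 TPM at high density (log2 fold change -0.64 ± 0.27 SE, limma adjusted p = 0.186). For Eef1e1 the difference was -0.32 or -0.95 without high density 1 or 2, and -0.83 or -0.44 without low density 1 or 2. Of 19 partners of the cytosolic enzymes, these scaffolds included, 0 were called, where 6.68% of all rows were called. Their median was 0.06, beside 0.12 for all rows.

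Mars, the methionine enzyme of the complex, overlaps Ddit3 on the opposite strand. Mars was 192 and 154 TPM at low and 151 and 210 TPM at high density, whereas Ddit3 was 65.6 and 36.3 TPM at low and 129 and 175 TPM at high density. The groups overlapped for Mars and not for Ddit3. In all, 10 of the 36 members overlap a protein-coding gene of the table on the opposite strand (Cars2, Ears2, Fars2, Farsb, Hars, Hars2, Iars2, Mars, Wars and Yars), and 1, Aars, on the same strand. The libraries were strand-specific per the labels, but no source used here says whether strand was used in counting, and reads of the shared stretches may have been split.

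Synthetases form 2 unrelated structural classes. The 18 members of class I (the cytosolic and mitochondrial enzymes for cysteine, isoleucine, leucine, methionine, arginine, valine, tryptophan and tyrosine, with Qars and Ears2) had a median log2 fold change of -0.28, and the 17 of class II one of 0.0023. Eprs holds both and was in neither list. Values in each class ran from strongly negative to positive (-0.80 to 0.47 and -0.71 to 0.79).

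The mitochondrial genes were less abundant. Lars2, the leucine enzyme, was highest at low density with 162 ± 51.2 TPM, followed by Iars2, the isoleucine enzyme, with 79.9 ± 2.85 TPM, and Ears2, the glutamate enzyme, was lowest with 6.06 ± 0.26 TPM (SD, n = 2). The values of Lars2 were 198 and 126 TPM at low and 131 and 110 TPM at high density, and the groups overlapped. Rn45s, the row of the ribosomal RNA precursor, was 1176 and 427 TPM at low and 1255 and 322 TPM at high density. Both rows were higher in library 1 than in library 2 of either density, and the part of ribosomal RNA reads in the Lars2 value was not tested.

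Fars2, the mitochondrial phenylalanine enzyme, was the mitochondrial gene with the largest positive difference. It was 23.8 and 21.3 TPM at low and 34.1 and 34.1 TPM at high density, with no overlap. High density was 1.51 times low density, a log2 difference of 0.58 ± 0.26 (SE) with an adjusted p of 0.209 in limma. It overlaps Lyrm4 and Nrn1 on the opposite strand.

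Both high density values lay below both low density values in 7 of the 16 mitochondrial genes (Cars2, Mars2, Pars2, Sars2, Vars2, Wars2 and Yars2), where 20.0% of all rows were separated downwards, and above them in 1 (Fars2), where 34.7% were separated upwards. The sizes were modest. Yars2, the tyrosine enzyme, was 65.8 and 69.8 TPM at low density and 37.4 and 64.6 TPM at high density (log2 fold change -0.45 ± 0.29 SE, limma adjusted p = 0.378). Pars2, the proline enzyme, was 9.59 and 9.58 TPM at low density and 4.58 and 8.71 TPM at high density (log2 difference -0.52 ± 0.35 SE, limma adjusted p = 0.402). Ears2, whose groups overlapped, was 6.25 and 5.88 TPM at low density and 2.18 and 6.07 TPM at high density (log2 difference -0.57 ± 0.41 SE, limma adjusted p = 0.436). In these genes the low density pair was tight, high density 1 was the lowest library and high density 2 lay close to the low density values.

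Rars2, the arginine enzyme, had 41.1 and 48.3 TPM at low and 26.4 and 52.3 TPM at high density. Vars2, the valine enzyme, had 33.3 and 31.1 TPM at low and 23.8 and 28.0 TPM at high density, a smaller spread with no overlap.

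The mitochondrial median moved most when high density 1 was left out, to -0.046, beside 0.27 for all rows tested. Without high density 2 the median was -0.48, beside -0.023 for all rows tested. Among 19 mitochondrial translation factors tested with all libraries, the median was -0.022, beside 0.12 for all rows. Of these factors 0 were called, where 6.68% of all rows were called.

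Of the members, 13 amino acids have 1 cytosolic and 1 mitochondrial gene each. In 12 of the 13 pairs the cytosolic TPM exceeded the mitochondrial TPM in every library, up to 41.6-fold for Nars over Nars2, the asparagine enzymes. The exception was leucine, where Lars was below Lars2 in 3 libraries (ratios of 0.584, 0.755 and 0.594) and above it in high density 2 (1.92). In 9 of the 13 pairs the log2 fold change was more positive for the cytosolic gene, and in 4 (histidine, asparagine, arginine and tryptophan) for the mitochondrial one. The widest such gap was for serine. The ratio of Sars to Sars2 was 4.24 and 3.38 in the low density libraries and 8.60 and 7.98 in the high density ones.

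The ratio of cytosolic to mitochondrial level did not overlap between densities in 10 pairs. It was higher at high density in 7 (cysteine, isoleucine, methionine, serine, threonine, valine and tyrosine), lower in 3 (histidine, arginine and tryptophan), and overlapping for alanine, leucine and asparagine. Of all single rows tested, 34.7% were separated upwards and 20.0% downwards. The share for ratios of 2 rows was not computed. Summed over the sets, the cytosolic genes reached 3978 and 3417 TPM at low and 3245 and 4735 TPM at high density. The mitochondrial genes summed to 762 and 687 TPM at low and 559 and 686 TPM at high density. Dividing the sums gave 5.22 and 4.97 at low density, against 5.81 and 6.90 at high density. Without Lars2, a choice made once the values had been seen, low density gave 7.05 and 6.08, and high density 7.59 and 8.22. Both forms of the ratio were higher in the high density libraries, but with 2 libraries a group no exact permutation test can fall below p = 0.333, and none was run.

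**Figure D4:**
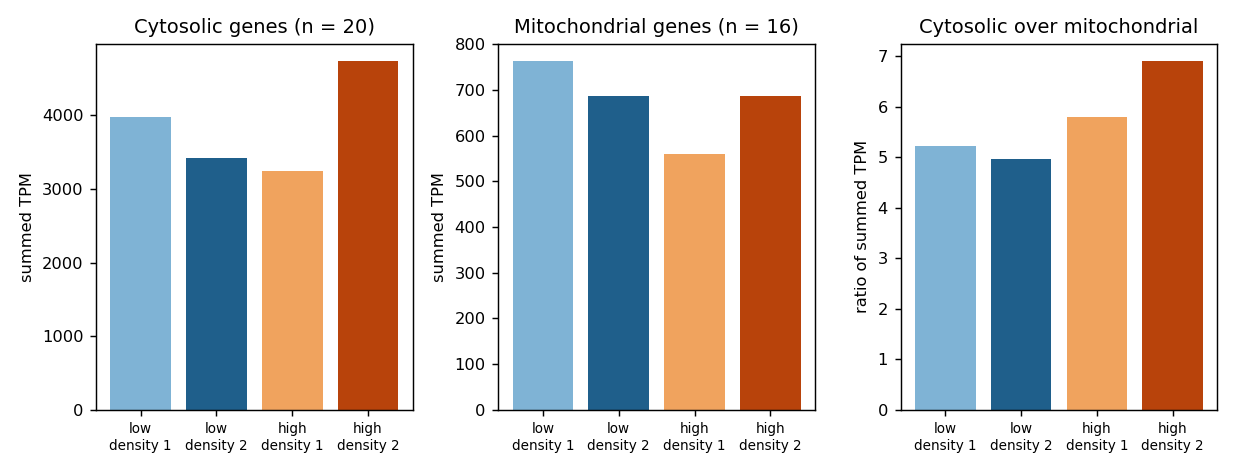
Summed TPM of the 20 cytosolic genes (left) and 16 mitochondrial genes (middle), and the ratio of the 2 sums (right), in each of the 4 libraries, with axes from 0. The cytosolic sum was highest in high density 2 (4735 TPM) and lowest in high density 1 (3245 TPM), and the ratio was above 5.22 in both high density libraries (5.81 and 6.90).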

How the data were processed

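RNA of 4 BEKO libraries was sequenced after strand-specific library construction, per the labels' protocols. The authors deposited 1 table of TPM values, which total 1000000 per library and keep no depth. Build mm9 and DESeq2 1.2.10 are named without a role, per the submitters' processing notes, and the aligner, counter and annotation were not given in the sources used here. Columns were tied to samples by the column names in the sample descriptions. High was compared with low density by limma 3.58.1 in R 4.3.3 on log2(TPM + 1), with a variance trend, two-sided, over the 10936 rows whose mean reached 1 TPM, and Benjamini-Hochberg adjustment over those rows. The fit, with 2 residual degrees of freedom, was run on simulated data with the same spread for all genes and both densities. In these libraries the pooled SD was 0.28 at low and 0.43 at high density, a difference the simulation did not cover. The members and gene lists were chosen with earlier results of these data known. All members were to be named, with values by library for the 5 cytosolic and 5 mitochondrial genes of largest absolute difference, up to 5 called genes of each related list, and Atf4, Ddit3, Asns, Aimp1, Aimp2, Eef1e1 and Eif2ak4. Other members and library patterns were picked after their values were seen. Gcn1 and Tars3 were matched as Gcn1l1 and Tarsl2, and Mtrfr was not matched. Overlaps came from GENCODE M21, of another build, for names and strands. Some items are not reported here.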

Additional observations from a re-analysis of the deposited data

How the results depend on the processing

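Leaving out 1 library gave 233 to 3270 calls over all rows (731 with all libraries), 0 to 10 cytosolic and 0 to 5 mitochondrial calls, and medians of -0.30 to 0.50 and of -0.48 to -0.046; a group then holds a lone library, assumed to vary like the other group. Over all rows 314 were called after median centring (160 higher and 154 lower), 360 after quantile normalisation (216 and 144) and 0 without the filter on low values (2565 at an unadjusted p under 0.05). The cytosolic count was 1 after median centring and after quantile normalisation (Wars, lower), and 1 under a filter of 5 TPM on the mean, or robust moderation (Sars, higher). With the replicate block 937 rows and 0 synthetases were called, as was Asns (limma adjusted p = 0.0108); same-numbered libraries deviated together at r = 0.042 across rows, so the number is not taken as a pairing. Signs turned after median centring for Dars (-0.0020), Farsb (-0.18), Mars (-0.14), Nars (-0.081), Qars (-0.17), Tars (-0.021), Hars2 (-0.052), Nars2 (-0.0088) and Aimp2 (-0.071), after quantile normalisation for Farsb (-0.061), Qars (-0.071), Hars2 (-0.011) and Nars2 (-0.043), and without ribosomal protein rows for Farsb (-0.0080). With 1 library left out, log2 fold changes crossed 0 for Aars (-0.15 to 0.71), Eprs (-0.30 to 0.72), Farsb (-0.48 to 0.48), Iars (-0.12 to 1.02), Lars (-0.42 to 1.01), Mars (-0.19 to 0.29), Nars (-0.31 to 0.52), Qars (-0.25 to 0.28), Tars (-0.44 to 0.77), Yars (-0.095 to 0.58), Aars2 (-0.16 to 0.16), Ears2 (-1.15 to 0.0020), Hars2 (-0.046 to 0.32), Iars2 (-0.42 to 0.13), Nars2 (-0.0085 to 0.36) and Rars2 (-0.73 to 0.23). The cause of these shifts was not tested.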
